A study of Oryza sativa Indica Group with 8 samples.

Results

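Roots of the rice cultivars Nootripathu and IR20 that had both been droughted were compared: the values of the 2 Nootripathu stress arrays minus those of the 2 IR20 stress arrays, over all 57258 probe sets that are not Affymetrix controls. These are 4 of the 8 arrays of the study. The study hybridised total RNA from roots of both cultivars, watered or droughted, to an Affymetrix rice genome array. Each of its 4 groups held 2 arrays, which the labels call biological replicates.

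IR20 stress and Nootripathu stress were the groups compared, and IR20 control and Nootripathu control served to show whether a difference was also present in watered roots. The labels describe IR20 as an indica that is semi-dwarf, shallow rooted, high yielding and drought susceptible, and Nootripathu as an indica landrace that is deep rooted, low yielding and drought tolerant. All plants were raised 1 to a pipe, in PVC pipes 1 m long and 15 cm wide, in a greenhouse. In the stress groups water was withheld from 40 days after sowing, and roots were taken once the leaves rolled and dried. The labels give no harvest day, soil water value or number of plants per array, so cultivar and water status at harvest cannot be told apart. Roots of both stress groups were cleaned by tapping, whereas control roots were washed.

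Roots of a droughted rice plant face dry soil with reduced flow of water and of the nutrients that water carries. Abscisic acid rises and induces dehydrins and other LEA (late embryogenesis abundant) proteins, cell division and elongation slow in many roots, and uptake of nitrate, ammonium, silicon and metals depends on transporters of the outer root cells. Rice roots also make diterpenoid phytoalexins, antimicrobial compounds formed from geranylgeranyl diphosphate by copalyl diphosphate synthases, kaurene synthase-like enzymes and cytochrome P450 enzymes.

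Array medians lay between 5.29 and 5.35 on the log2 scale, and signals ran from about 2.53 to 15.28. IR20 stress replicate 2 stood apart. The poly-A spike-in transcripts gave a signal at the 3′ end that exceeded the 5′ end by 5.32 log2 units there, against 2.08 to 2.58 on the other 7 arrays, and the 3′ minus 5′ difference of GAPDH was 6.47 against 2.92 to 3.79. In the IR20 stress group 1028 probe sets differed by more than 1 log2 unit between the replicates, against 52, 111 and 135 in the other groups. Most counts below are therefore also given without that array where they change, and so is a single gene where its call changes. Of 10 markers of photosynthetic tissue, 3 passed, all lower in Nootripathu, and their mean log2 signal was 5.76 and 5.98 on the IR20 stress arrays and 5.25 and 5.27 on the Nootripathu stress arrays. Their part in the results was not tested.

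In droughted roots nitrate transport genes were higher in Nootripathu, with a difference of 5.64 log2 units for NRT2.3, and 6 genes of phytoalexin synthesis were lower, with -5.23 for CPS2. DNA replication genes and cellulose synthase genes were mostly higher in Nootripathu where they passed. Dehydrin and LEA genes did not pass at their brightest probe sets. Of the 57258 probe sets 12601 passed, 6105 higher and 6496 lower in Nootripathu, which is 22% of those tested (10.7% higher, 11.3% lower). The threshold was an adjusted p under 0.05 in limma, with Benjamini-Hochberg adjustment over all probe sets. At least 2-fold differences were found for 3587 of them (6.26%), 2295 higher and 1292 lower.

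Among 17905 genes, each represented by its probe set with the highest mean signal, 6229 passed (34.8%), 3246 higher (18.1%) and 2983 lower (16.7%). The median difference over all genes was -0.014 on the log2 scale. Without IR20 stress replicate 2, 6281 genes passed (35.1%), 3899 higher (21.8%) and 2382 lower (13.3%), so the share of higher genes among the calls moved from 52.1% to 62.1% and the median to 0.036. The shares of 18.1% and 16.7%, and of 21.8% and 13.3% without that array, are the background of each gene list below. Both arrays of 1 cultivar lay above both of the other for every probe set that passed, as they did for 33998 of all 57258 probe sets. Without IR20 stress replicate 2, 12572 probe sets passed (22%), 6700 higher (11.7%) and 5872 lower (10.3%). As the groups overlapped for no probe set that passed, leaving out IR20 stress replicate 2 could not reverse the direction of a call. Without Nootripathu stress replicate 1 or 2 the count fell to 7266 and 7319. For fits without another array or with scaling to the spike-in transcripts, the share over all genes was not counted. List counts from those fits therefore have no background here. Differences below are log2 differences, Nootripathu minus IR20, ± the standard error (SE) of the limma fit with n = 2 arrays per group. In a bulk root sample fewer cells of a type and less RNA per cell cannot be told apart. Probes that match the 2 cultivars unequally would also give a difference in signal, and the cultivars' sequences were not used here.

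**Figure D1:**
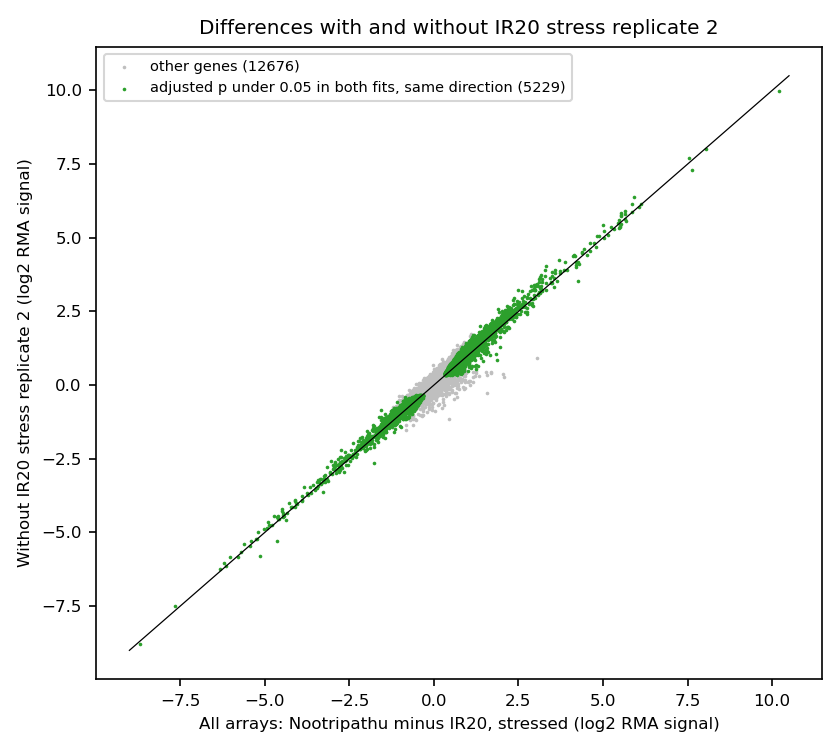
Log2 difference in stressed roots (Nootripathu minus IR20) of each of the 17905 genes with all arrays (horizontal axis) and without IR20 stress replicate 2 (vertical axis). Green points are the 5229 genes that passed in both fits in the same direction, grey points the other genes, and the line marks equal values.

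Nitrogen uptake genes stood among the largest differences. NRT2.3 (LOC4324249) and NRT2.2 (LOC4328052) belong to the high-affinity nitrate transporter family NRT2, and NAR2.2 (LOC4336175) to the NAR2 family of partner proteins that NRT2 transporters need. All 4 genes of the nitrate transport and reduction list were higher in Nootripathu, with a median difference of 3.92, against 18.1% of all genes. NRT2.3 gave 5.04 and 5.38 on the IR20 arrays and 10.78 and 10.93 on the Nootripathu arrays, and the difference was 5.64 ± 0.15 (adjusted p = 3.25e-07). NRT2.2 gave 4.64 and 4.93 on the IR20 arrays and 8.42 and 8.60 on the Nootripathu arrays, a difference of 3.72 ± 0.13. Both transporters were close to or below the array medians in droughted IR20. In control roots their differences were -0.51 and 0.24, and neither passed. The drought difference of NRT2.3 (stressed minus control) was -6.38 in IR20 and -0.23 in Nootripathu.

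NAR2.2 followed another course. It gave 4.79 and 5.33 on the IR20 arrays and 9.11 and 9.24 on the Nootripathu arrays, a difference of 4.11 ± 0.18 (adjusted p = 3.38e-06). On the control arrays it was at 5.16 and 5.28 in IR20 and 5.20 and 5.43 in Nootripathu, so that it was high in droughted Nootripathu and low in the other 3 groups. NIA1 (LOC4345795), a nitrate reductase gene, was higher by 1.60 ± 0.10 in stressed roots and lower in control roots, at -1.16. A second NIA1 probe set with a signal of about 5 on every array did not pass. The probe sets of NRT2.3 and NRT2.2 are of a kind that can bind transcripts of related genes too. In all, 35 named genes were read from such probe sets, among them MCM9, SWEET14, HAK1, TIP2-2, PIP2-2 and LOC4346960.

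Of 14 genes of ammonium transport and glutamine synthesis, 4 were higher and 2 lower in Nootripathu (28.6% and 14.3%), and 5 and 2 without IR20 stress replicate 2. AMT1-2 (LOC4330008), an ammonium transporter, gave 3.53 and 3.52 on the IR20 arrays and 6.60 and 6.60 on the Nootripathu arrays. The difference was 3.08 ± 0.09 (adjusted p = 6.28e-07), while in control roots AMT1-2 was lower in Nootripathu, at -1.16. Its signals on the IR20 stress arrays were near the lower end of the range, so the size in stressed roots is not exact. GLN1-2 (LOC4332108), a cytosolic glutamine synthetase, was higher by 2.17 ± 0.12. The 2 probe sets of AMT1-1 disagreed, at 1.21 and -0.84, and both passed, so no direction is given for it, although its brighter probe set counts among the 4. The transporter genes AMT2-1 and AMT2-3 were lower, by -0.52 ± 0.09 and -1.43 ± 0.15. ALN (LOC4337428) encodes allantoinase, an enzyme of ureide breakdown that releases stored nitrogen. ALN gave 4.77 and 4.48 on the IR20 arrays and 10.12 and 10.08 on the Nootripathu arrays, a difference of 5.47 ± 0.12 (adjusted p = 1.40e-07). In control roots the order was the opposite, with 10.60 and 10.53 in IR20 and 8.65 and 8.71 in Nootripathu. The drought difference of ALN was -5.94 in IR20 and 1.42 in Nootripathu.

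**Figure D2:**
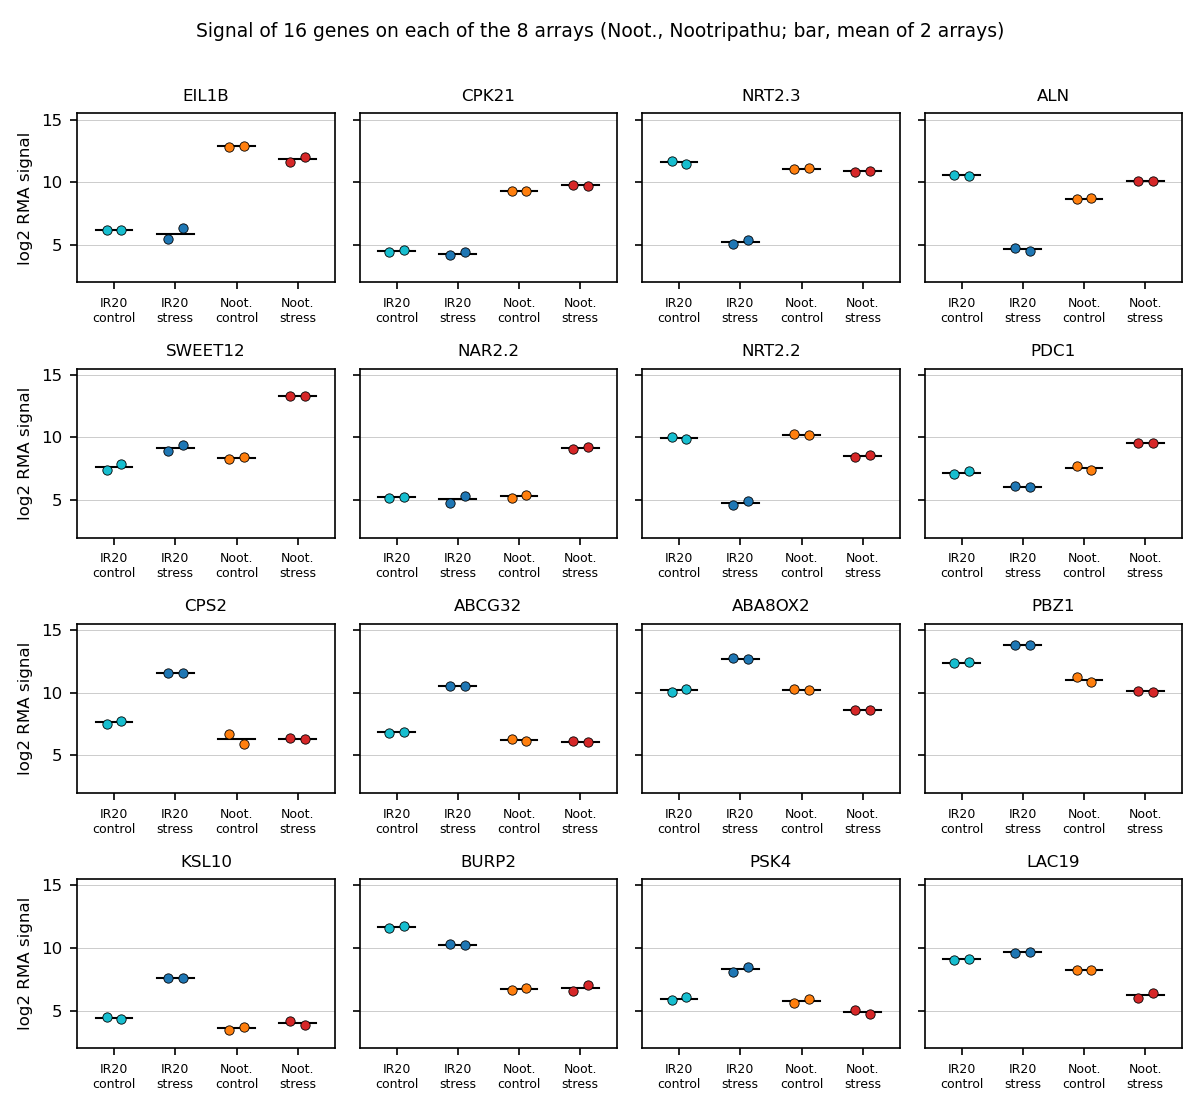
Log2 RMA signal of 16 genes on each of the 8 arrays, by group; points are arrays and bars the mean of the 2 arrays. NRT2.3, NRT2.2 and ALN were low in droughted IR20, NAR2.2 and SWEET12 were high in droughted Nootripathu, CPS2, ABCG32, KSL10 and PSK4 were high in droughted IR20, and EIL1B, CPK21 and BURP2 differed between the cultivars in both conditions.

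Some genes of diterpenoid phytoalexin synthesis were lower in droughted Nootripathu by wide margins. Of 16 genes on the list 6 were lower (37.5%), 1 was higher and 9 did not pass, with the same counts without IR20 stress replicate 2. The median of the list was -0.28. In control roots 7 of the 16 were lower and 0 higher, at a median of -0.43 (22.8% of all genes were lower and 12.6% higher there). Lower values in Nootripathu were therefore not particular to droughted roots. CPS2 (LOC9266189), an ent-copalyl diphosphate synthase, gave 11.55 and 11.60 on the IR20 arrays and 6.36 and 6.32 on the Nootripathu arrays, a difference of -5.23 ± 0.23 (adjusted p = 3.69e-06). KSL10 (LOC4352248), a diterpene synthase, gave 7.65 and 7.62 on the IR20 arrays and 4.18 and 3.83 on the Nootripathu arrays, a difference of -3.63 ± 0.15. Droughted IR20 was the high group for both. In IR20 the drought difference was 3.93 for CPS2 and 3.23 for KSL10, and in Nootripathu it was 0.03 and 0.41.

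KSL7 (LOC4329724), another diterpene synthase, was lower at -2.28 ± 0.14, and a second probe set of it passed at -3.04. The P450 genes CYP71Z7 (LOC4329726), CYP76M5 (LOC4329721) and CYP76M8 (LOC4329722), which act after the synthases, differed by -2.57 ± 0.17, -2.01 ± 0.16 and -1.12 ± 0.13. CYP701A8 (LOC4341343), a P450 related to kaurene oxidase that stands on no list, was lower at -2.84 ± 0.12. The exception was CYP99A2 (LOC4335096), a P450 gene that was higher by 0.59 ± 0.13, but it did not pass without Nootripathu stress replicate 2 (adjusted p = 0.0914). CPS4 (LOC4335090), the syn-copalyl diphosphate synthase of the other phytoalexin branch, had -0.53 and did not pass (adjusted p = 0.0501), and its value ran from -0.75 without IR20 stress replicate 1, where it passed (0.00845), to -0.31 without IR20 stress replicate 2. The other 8 genes of the list did not pass.

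Defence genes also were lower in Nootripathu. Of 13 chitinase and pathogenesis-related (PR) genes 9 were lower (69.2%) and 0 higher, and 6 were lower without IR20 stress replicate 2. Without Nootripathu stress replicate 1 or 2 the count was 5. PBZ1 (LOC4352491), a PR10 protein gene, gave 13.83 and 13.84 on the IR20 arrays and 10.11 and 10.10 on the Nootripathu arrays, a difference of -3.73 ± 0.13 (adjusted p = 1.14e-06). CHT9 (LOC4338719), a chitinase gene, gave 10.82 and 10.61 on the IR20 arrays and 8.68 and 8.98 on the Nootripathu arrays and differed by -1.89 ± 0.13. CHT9 was higher in Nootripathu in control roots, by 1.60, so the order of the cultivars reversed. RC24 (LOC4342115) and CHT11 (LOC4331519), other chitinase genes, differed by -1.27 ± 0.12 and -1.51 ± 0.24. CHT4 (LOC4336263) differed by -1.57 ± 0.29, with 5.23 and 6.20 on the IR20 arrays and 4.34 and 3.96 on the Nootripathu arrays, but did not pass without Nootripathu stress replicate 2 (adjusted p = 0.053). ABCG32 (LOC4326812), an ABC transporter of the pleiotropic drug resistance type, gave 10.58 and 10.56 on the IR20 arrays and 6.12 and 6.09 on the Nootripathu arrays, a difference of -4.46 ± 0.10 (adjusted p = 1.78e-07). Its control values were 6.81 and 6.89 in IR20 and 6.29 and 6.12 in Nootripathu, so the large signal was that of droughted IR20.

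**Figure D3:**
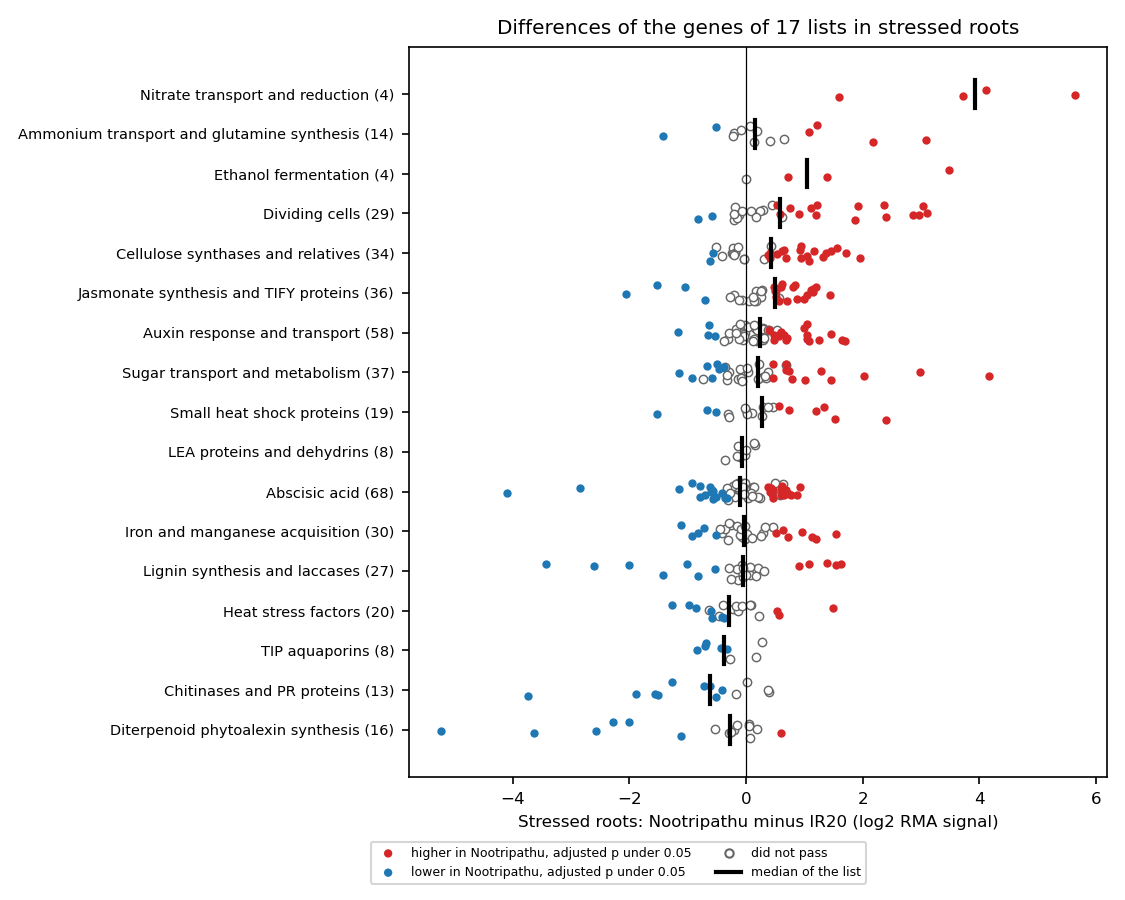
Log2 difference in stressed roots (Nootripathu minus IR20) of the genes of 17 lists; each point is a gene, filled where it passed, red higher and blue lower in Nootripathu, and the bar is the median of the list. All 4 nitrate genes lie right of 0, the 8 LEA and dehydrin genes lie near 0, and the phytoalexin list has a tail of 6 genes that were lower in Nootripathu.

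Abscisic acid genes passed in both directions, 16 higher and 16 lower of 68 (23.5% each, near the background), at a median of -0.11. Without IR20 stress replicate 2 the counts were 14 and 13, and with arrays scaled to the spike-in transcripts 0 and 4. Without Nootripathu stress replicate 2 only 7 were higher and 8 lower. Calls over all probe sets also fell with spike-in scaling and without that Nootripathu array. The widest gap was in the breakdown of the hormone. ABA8OX2 (LOC4345810), an ABA 8′-hydroxylase, gave 12.75 and 12.72 on the IR20 arrays and 8.65 and 8.61 on the Nootripathu arrays, a difference of -4.11 ± 0.11 (adjusted p = 2.72e-07). Its probe set can bind related transcripts too. In control roots ABA8OX2 was at 10.10 and 10.29 in IR20 and 10.29 and 10.20 in Nootripathu, with no difference that passed. ABA8OX1 (LOC9269675), of the same family, was higher in Nootripathu by 0.92 ± 0.11. The protein phosphatase 2C genes, a family that includes negative regulators of abscisic acid signalling, held PP2C16 (LOC107276004) at -2.86 ± 0.16 and PP2C61 at -1.15 ± 0.10 on the lower side and PP2C15 at 0.77 ± 0.11 on the higher side. PP2C61 was higher in Nootripathu in control roots, by 2.36. The kinase gene SAPK2 was higher by 0.87 ± 0.11.

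LEA and dehydrin genes, which abscisic acid induces, had no call in droughted roots at their brightest probe sets. Of the 8 genes 0 passed, the median difference was -0.064, and the values ran from -0.36 for EMP1 to 0.15 for LIP9. At an unadjusted p under 0.05 the limma count was also 0. RAB21 (LOC4350454), a dehydrin gene also known as RAB16A, gave 15.28 and 15.25 on the IR20 arrays and 15.26 and 15.26 on the Nootripathu arrays. These values are at the top of the signal range, so a difference above it would not show. LEA3 gave 14.14 and 14.00 on the IR20 arrays and 13.98 and 14.10 on the Nootripathu arrays, a difference of -0.03 ± 0.11, and RAB25 12.76 and 12.77 on the IR20 arrays and 12.69 and 12.64 on the Nootripathu arrays, a difference of -0.10 ± 0.14. In control roots 6 of the 8 were lower in Nootripathu and 1 higher, at a median of -2.01 (12.6% of all genes were higher and 22.8% lower there). For LEA3, RAB16B, RAB16C, RAB16D and RAB21 the control differences were -2.13, -2.10, -2.61, -1.95 and -1.86. The dehydrin gene LIP9 had 0.15, but its other probe sets were higher in Nootripathu by 1.96 and 1.20, and both passed.

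Heat shock genes were mixed. Of 19 small heat shock protein genes 6 were higher and 3 lower (31.6% and 15.8%), with 7 higher without IR20 stress replicate 2 and 1 lower without Nootripathu stress replicate 1. HSP16.9B (LOC4325698) gave 7.83 and 8.18 on the IR20 arrays and 10.30 and 10.49 on the Nootripathu arrays, a difference of 2.39 ± 0.17, HSP26.7 differed by 1.52 ± 0.16, and HSP16.9A by 1.34 ± 0.14. HSP18.1 (LOC4332361) went the other way, at -1.52 ± 0.14. HSP18.0 had 0.46 and did not pass, although another of its probe sets was higher by 1.32. The 6 genes for larger chaperones (HSP101, other CLPB proteins and HSP81) did not pass, and HSP101 had 0.02. Among 20 heat stress factor genes 3 were higher and 7 lower, and 3 and 8 without IR20 stress replicate 2. The count higher was 1 without Nootripathu stress replicate 2, and the count lower was 3 without Nootripathu stress replicate 1. HSFB2A (LOC4336701) was lower at -1.27 ± 0.10 and HSFA4D at -0.86 ± 0.11, while HSFC1A was higher by 1.48 ± 0.23. A dimmer HSFB2A probe set had -0.26 and did not pass (adjusted p = 0.202). The proline synthesis genes P5CS1 and P5CS2 differed by -0.38 ± 0.09 and -0.64 ± 0.10. P5CS1 did not pass without Nootripathu stress replicate 1 (adjusted p = 0.0843) or 2 (0.108), and the other 3 probe sets of P5CS2 did not pass.

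Genes of DNA replication were higher in droughted Nootripathu. Of 29 genes on the dividing cell list 15 were higher (51.7%) and 2 lower, with 18 higher without IR20 stress replicate 2, 13 without IR20 stress replicate 1 or Nootripathu stress replicate 2, and the median was 0.58. MCM4 (LOC107275673) and MCM5 (LOC4331016) encode subunits of the MCM helicase, which unwinds DNA at replication. MCM4 gave 3.68 and 4.66 on the IR20 arrays and 7.22 and 7.33 on the Nootripathu arrays, a difference of 3.10 ± 0.26 (adjusted p = 0.000126). MCM5 gave 4.80 and 5.52 on the IR20 arrays and 8.09 and 8.29 on the Nootripathu arrays, a difference of 3.03 ± 0.21. The other subunits MCM2, MCM3, MCM6 and MCM7 differed by 2.40 ± 0.15, 2.86 ± 0.29, 1.87 ± 0.15 and 1.92 ± 0.17, so all 6 helicase subunits were higher. In both replicates of IR20 these genes lay below both replicates of Nootripathu, and for each of the 6 the higher IR20 value was that of replicate 2.

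RPA32 (LOC4331236), a subunit of the single-strand DNA binding protein RPA, gave 4.84 and 4.95 on the IR20 arrays and 7.16 and 7.36 on the Nootripathu arrays, a difference of 2.36 ± 0.13. PCNA (LOC4331062), the sliding clamp of DNA polymerase, differed by 1.11 ± 0.16, and the mitotic kinase gene CDKB2-1 by 0.75 ± 0.13. RPA70A (LOC4330902) and ORC2 (LOC4331860), of the RPA and origin recognition complexes, were lower, at -0.59 ± 0.11 and -0.82 ± 0.10. The mean log2 signal of 17 markers of dividing cells was 5.11 and 5.58 on the IR20 stress arrays, 6.57 and 6.68 on the Nootripathu stress arrays, 7.76 and 7.81 on the IR20 control arrays and 6.58 and 6.62 on the Nootripathu control arrays, so droughted IR20 was the lowest group. Of the whole list, 1 gene was higher and 20 were lower in Nootripathu in control roots, at a median of -1.18. Of all genes 12.6% were higher and 22.8% lower in control roots. The 6 helicase genes were all lower there, from -1.18 for MCM5 to -1.94 for MCM3. The drought difference of MCM2 was -3.67 in IR20 and 0.60 in Nootripathu. MCM9 (LOC4340503) differed from these: it was higher in Nootripathu in both conditions, by 2.97 ± 0.15 and 3.51, and 3 probe sets passed.

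Cellulose synthase genes and their relatives showed a like order. Of 34 genes 19 were higher (55.9%) and 2 lower, the count of higher genes was 19 without IR20 stress replicate 2, and the median was 0.42. It was 13 without Nootripathu stress replicate 2. CESA6 (LOC4342850) and CESA5 (LOC4334710) encode cellulose synthase subunits of the primary wall. CESA6 gave 10.92 and 11.10 on the IR20 arrays and 12.46 and 12.46 on the Nootripathu arrays, a difference of 1.45 ± 0.10, while CESA5 differed by 1.32 ± 0.10 and CESA1, also of the primary wall, by 0.94 ± 0.12. A dimmer CESA1 probe set had 0.05 and did not pass. CESA4 (LOC4324625) and CESA7 (LOC4348853), subunits of the secondary wall, differed by 1.16 ± 0.10 and 0.65 ± 0.15. CESA7 missed the threshold without IR20 stress replicate 1 (adjusted p = 0.0648) and without Nootripathu stress replicate 2 (0.103). BC1 (LOC4333114), a COBRA-like protein of secondary walls, gave 6.88 and 6.89 on the IR20 arrays and 8.57 and 8.63 on the Nootripathu arrays, a difference of 1.71 ± 0.09. In control roots BC1 was lower in Nootripathu at -3.01. There 20 of the 34 genes were lower and 5 higher, against 22.8% and 12.6% of all genes. CSLC9 (LOC4334258), of the cellulose synthase-like C family, was higher by 1.96 ± 0.12. CSLF6 (LOC4344719), of the enzyme family that makes mixed-linkage glucan, had 1.56 ± 0.13, but 2 further probe sets of it, at -0.06 and -0.14, did not pass. CSLA5 and CSLF8 were lower at -0.57 ± 0.12 and -0.62 ± 0.14, though neither passed without Nootripathu stress replicate 2 (adjusted p = 0.0793 and 0.0995). XTH8 (LOC4345019), a xyloglucan-modifying enzyme, was higher by 2.50 ± 0.13 in stressed and by 2.3 in control roots.

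**Figure D4:**
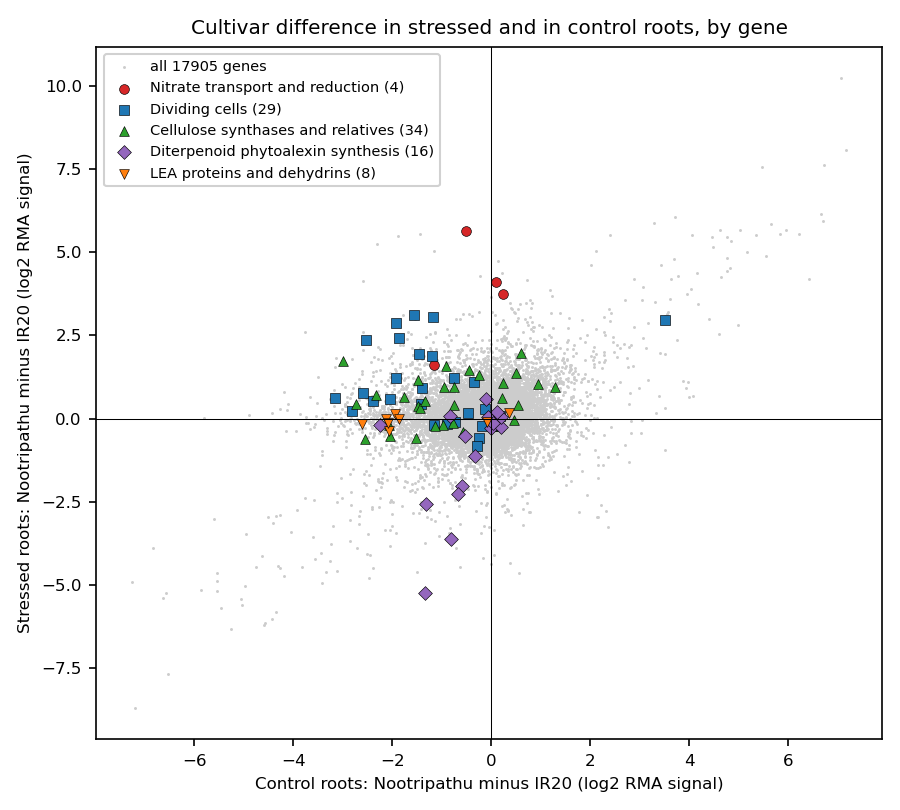
Cultivar difference (Nootripathu minus IR20, log2 RMA signal) in control roots (horizontal axis) and stressed roots (vertical axis); grey points are all 17905 genes and coloured points 5 gene lists. The nitrate genes lie above 0 on the vertical axis, most dividing cell and cellulose synthase genes lie at the upper left, the dehydrins lie near 0 on the vertical axis, 6 of the 8 of them near -2 on the horizontal axis, and 6 phytoalexin genes lie below.

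Sugar and fermentation genes were among the largest differences. Of 37 genes of sugar transport and metabolism 12 were higher and 7 lower (32.4% and 18.9%), and without IR20 stress replicate 2, 13 and 2. SWEET12 (LOC4332825), a SWEET sugar transporter gene, gave 8.96 and 9.36 on the IR20 arrays and 13.34 and 13.32 on the Nootripathu arrays, a difference of 4.17 ± 0.19 (adjusted p = 3.89e-06). In control roots it was at 7.42 and 7.87 in IR20 and 8.25 and 8.48 in Nootripathu, so its signal in droughted Nootripathu was the highest of the 4 groups. CIN2 (LOC4335790), a cell wall invertase gene, gave 4.46 and 4.93 on the IR20 arrays and 7.62 and 7.75 on the Nootripathu arrays, a difference of 2.99 ± 0.15. SWEET14 and SWEET15 differed by 2.02 ± 0.11 and 1.45 ± 0.12. SWEET1B, by contrast, was lower at -1.15 ± 0.19. The trehalose-6-phosphate phosphatase gene TPP7 was higher by 0.78 ± 0.09. Of 4 genes of ethanol fermentation 3 were higher. PDC1 (LOC4339066), a pyruvate decarboxylase, gave 6.09 and 6.08 on the IR20 arrays and 9.60 and 9.52 on the Nootripathu arrays, a difference of 3.48 ± 0.13 (adjusted p = 1.57e-06), and the alcohol dehydrogenase gene ADH2 differed by 1.39 ± 0.12. PDC2 was higher by 0.71 ± 0.10, although a dimmer probe set of it, at 1.60, did not pass (adjusted p = 0.0556), and the fourth gene, PDC3, had -0.005.

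Transporters of minerals and water differed gene by gene. LSI2 (LOC4331328), the silicon efflux transporter of the root, gave 6.26 and 6.85 on the IR20 arrays and 9.69 and 9.84 on the Nootripathu arrays, a difference of 3.21 ± 0.18 (adjusted p = 1.34e-05). Its drought difference was -7.00 in IR20 and -3.54 in Nootripathu. LSI1, the silicon influx channel, had -0.28, and LSI6, a related channel, -0.38, and neither passed. In control roots LSI6 was at -3.94 (adjusted p = 3.07e-06). Of 30 iron and manganese genes 7 were higher and 5 lower (23.3% and 16.7%), at a median of -0.04, with 9 higher without IR20 stress replicate 2 and 8 lower without IR20 stress replicate 1. NRAMP5 (LOC4342859), a manganese transporter, gave 5.54 and 5.99 on the IR20 arrays and 7.18 and 7.42 on the Nootripathu arrays, a difference of 1.53 ± 0.16. NRAMP1, of the same family, was higher by 0.64 ± 0.10 in stressed and lower at -3.66 in control roots. NAAT1 and NAS3, of phytosiderophore synthesis, were higher by 1.20 ± 0.11 and 1.14 ± 0.10, NAS1 had -0.41 and passed only without Nootripathu stress replicate 2 (adjusted p = 0.0462), and the NAAT1 signals on the IR20 arrays, 3.55 and 3.47, were near the lower end of the range. YSL16 and YSL13, of the family that carries metal chelates, were lower at -1.11 ± 0.15 and -0.83 ± 0.10. The iron transporter gene IRT1 had 0.30 with all arrays and 0.47 without IR20 stress replicate 2, where it passed (adjusted p = 0.018).

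Among 33 potassium, phosphate and sulfate transporter genes 6 were higher and 5 lower (18.2% and 15.2%, close to the background), with 7 higher and 2 lower without IR20 stress replicate 2 and 1 lower without Nootripathu stress replicate 1. HAK13 (LOC4341805), of the potassium transporter family, was higher by 2.19 ± 0.16, HAK4 by 1.40 ± 0.24, and HAK1, a high-affinity potassium transporter, was lower at -1.89 ± 0.11. PHO1-2 (LOC4331090), which loads phosphate into the xylem, gave 9.23 and 9.31 on the IR20 arrays and 11.23 and 11.17 on the Nootripathu arrays, a difference of 1.93 ± 0.10, and 2 further probe sets of it, at signals of about 5, did not pass. Of 8 vacuolar TIP aquaporin genes 5 were lower and 0 higher, with 4 lower and 1 higher without IR20 stress replicate 2, but the count was 1 without Nootripathu stress replicate 1. TIP2-2 was lower at -0.69 ± 0.12, and TIP2-1 had 0.16 and did not pass. Of 10 plasma membrane PIP aquaporin genes 2 were higher and 4 lower. Without IR20 stress replicate 2 this was 1 and 1, namely PIP2-5 at 0.88 ± 0.12 and PIP2-2 at -0.80 ± 0.13 with all arrays.

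Jasmonate and auxin genes passed mostly in the higher direction. Of 36 jasmonate synthesis and TIFY genes (TIFY proteins include the JAZ repressors of jasmonate signalling) 18 were higher and 4 lower (50% and 11.1%), and the median was 0.49. Without IR20 stress replicate 2 the counts were 21 and 3, and 12 were higher without Nootripathu stress replicate 2. AOS2 (LOC4332121), an allene oxide synthase, was higher by 1.44 ± 0.12, TIFY11E by 1.19 ± 0.15 and TIFY6B by 1.15 ± 0.10. AOS3, OPR12 and LOX9 were lower, at -1.52 ± 0.11, -2.07 ± 0.15 and -1.05 ± 0.11, and 2 other LOX9 probe sets did not pass. Of 58 auxin response and transport genes 19 were higher and 4 lower (32.8% and 6.9%), with 24 and 5 without IR20 stress replicate 2, 12 higher without Nootripathu stress replicate 2 and 7 lower without IR20 stress replicate 1. IAA6 (LOC4326541) and IAA12 (LOC4333512), repressors of auxin response, gave differences of 1.70 ± 0.20 and 1.65 ± 0.17. SAUR39 was lower at -1.16 ± 0.12. The list shares JAR1 with the jasmonate list.

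Of 26 cytokinin genes 5 were higher and 7 lower (19.2% and 26.9%), with 3 and 4 without Nootripathu stress replicate 1. LOGL10 (LOC4348914), of the LOG family that releases active cytokinin, gave 4.52 and 4.81 on the IR20 arrays and 7.09 and 7.29 on the Nootripathu arrays, a difference of 2.53 ± 0.15, while LOGL5 was lower at -1.12 ± 0.10. The type-A response regulator genes RR1 and RR4 were lower, at -0.93 ± 0.17 and -0.92 ± 0.10. RR1 did not pass without Nootripathu stress replicate 2 (adjusted p = 0.0503). Of 11 ethylene genes 3 were higher and 3 lower, and 3 and 2 without IR20 stress replicate 2. The receptor gene ERS2 was lower at -1.22 ± 0.11, and of the ethylene synthesis enzymes ACS1 was higher by 1.23 ± 0.12 and ACS2 lower at -0.83 ± 0.12. Of 4 gibberellin genes 1 was higher, GA20OX3 (LOC4342505), a late enzyme of gibberellin synthesis, by 0.96 ± 0.14 in stressed and 1.07 in control roots. SD1 (LOC4325003), the related gene behind the semi-dwarf habit of many indica cultivars, gave 5.71 and 5.49 on the IR20 arrays and 5.53 and 5.41 on the Nootripathu arrays, a difference of -0.13 ± 0.13 that did not pass. In control roots SD1 was higher in Nootripathu by 1.13 (adjusted p = 0.000592).

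Among transcription factors, 3 of 8 DREB genes were higher and 0 lower (1 lower without IR20 stress replicate 2), with DREB1A at 0.86 ± 0.10, and DREB2A had -0.42, which passed only without IR20 stress replicate 1 among the fits that left out an array (adjusted p = 0.0278). The NAC list had 5 of 8 higher and 0 lower, with 3 higher without Nootripathu stress replicate 1 and 2 lower without IR20 stress replicate 2. In control roots too 5 of the 8 were higher and 0 lower, at a median of 0.54. Of all genes 12.6% were higher and 22.8% lower there. NAC010 (LOC4343630) was higher by 1.82 ± 0.21, NAC45 by 1.74 ± 0.14 and NAC2 by 1.12 ± 0.10, and NAC6 had -0.17. The control differences of NAC010, NAC45 and NAC2 were 1.27, 0.68 and 0.70, and all passed. NAC5 gave 11.06 and 9.76 on the IR20 arrays and 10.15 and 9.94 on the Nootripathu arrays. Its difference was -0.36 with all arrays and -1.01 without IR20 stress replicate 2, where it passed (adjusted p = 0.0029). Of 18 bZIP genes 4 were higher and 5 lower (22.2% and 27.8%), with fewer lower without IR20 stress replicate 2. BZIP52 (LOC4341753) was higher by 2.2 ± 0.22, and BZIP23, a regulator of abscisic acid response, had -0.05. Of 11 MYB genes 2 were higher and 3 lower (18.2% and 27.3%), with more higher without IR20 stress replicate 2. MYBS1 (LOC4323963), of a family that binds sugar-response elements, was lower at -2.16 ± 0.19, and MYB17 was higher by 1.71 ± 0.27. Of 6 WRKY genes 2 were higher, with WRKY76 (LOC4347069) at 0.99 ± 0.10 in stressed and 0.99 in control roots, while 3 were without IR20 stress replicate 2 and 4 without IR20 stress replicate 1.

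Wall-bound oxidases and germins split within their families. Of 27 lignin and laccase genes 5 were higher and 7 lower (18.5% and 25.9%), and 5 and 8 without IR20 stress replicate 2. LAC19 (LOC4351005) and LAC24 (LOC4351915) encode laccases. LAC19 gave 9.64 and 9.71 on the IR20 arrays and 6.04 and 6.43 on the Nootripathu arrays, a difference of -3.44 ± 0.14 (adjusted p = 2.06e-06), and LAC24 was lower at -2.61 ± 0.15. The laccase genes LAC4 and LAC7 were higher instead, by 1.63 ± 0.19 and 1.54 ± 0.15. CAD3, of the cinnamyl alcohol dehydrogenase family, was lower at -2.01 ± 0.12 and CAD6 higher by 1.39 ± 0.13. Of 9 germin-like genes 4 were higher and 3 lower, with GER3 at 2.16 ± 0.17, GER4 at 1.26 ± 0.21, GER1 (LOC4344840) at -2.76 ± 0.17, GER2 at -1.47 ± 0.10 and GER6 at -1.52 ± 0.10. GER1 gave 8.91 and 9.10 on the IR20 arrays and 5.99 and 6.50 on the Nootripathu arrays. Among 22 genes of the Casparian strip membrane protein family 6 were higher and 8 lower, 5 and 7 without IR20 stress replicate 2, 3 higher without Nootripathu stress replicate 2 and 5 lower without Nootripathu stress replicate 1. The largest of these, CASPL2A1, was lower at -1.51 ± 0.15. CASP1 itself had -0.06.

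The remaining lists and some single genes follow. Of 24 ribosomal protein genes 2 were higher, 4 without IR20 stress replicate 2 and 0 without either Nootripathu stress array. Of 28 antioxidant genes 1 was higher and 6 lower (3 and 6 without IR20 stress replicate 2, 3 lower without Nootripathu stress replicate 1), with R1C-PRX (LOC4344045), a peroxiredoxin, at -0.73 ± 0.10. Among 6 glutathione transferase genes 1 was higher and 2 lower (16.7% and 33.3%). GST-I (LOC4325710) was higher by 2.50 ± 0.14, and GSTZ3 was lower at -0.65 ± 0.10, though a second GSTZ3 probe set, at -0.42, did not pass. Expansin and xyloglucan genes had 5 higher and 1 lower of 26 (7 and 1 without IR20 stress replicate 2), with the expansin genes EXPA16 and EXPA7 at 1.12 ± 0.16 and 1.02 ± 0.15. Dimmer EXPA7 probe sets had 0.50, which passed, and -0.13, which did not. SALT (LOC4326471), a lectin gene induced by salt, gave 14.68 and 14.62 on the IR20 arrays and 12.76 and 12.73 on the Nootripathu arrays and was lower at -1.91 ± 0.10, and a second probe set agreed in direction at -3.10. PSK4 (LOC4342304), a precursor of the growth peptide phytosulfokine, gave 8.13 and 8.53 on the IR20 arrays and 5.06 and 4.75 on the Nootripathu arrays, a difference of -3.43 ± 0.18 (adjusted p = 9.27e-06). CRSH2 (LOC4337890), a calcium-activated synthase of guanosine alarmones, gave 5.77 and 5.55 on the IR20 arrays and 9.31 and 9.32 on the Nootripathu arrays, a difference of 3.65 ± 0.18.

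Of the 17 dividing cell markers 10 were higher and 0 lower in droughted Nootripathu, and 12 were higher without IR20 stress replicate 2. Of 4 markers of root tissue 2, AMT1-2 and PHO1-2, were higher, and the mean log2 signal of the 4 was 7.74 and 7.96 on the IR20 and 9.02 and 9.12 on the Nootripathu stress arrays. Vascular markers had 5 higher and 3 lower of 13 (5 and 4 without that array), and endodermal and exodermal markers, a list that holds the Casparian strip genes too, 8 and 8 of 26 (7 and 7 without it). The photosynthetic genes PETC (LOC4343570) and PSAG (LOC4337812) were lower in Nootripathu, at -2.13 ± 0.15 and -1.35 ± 0.11, and without IR20 stress replicate 1 the count of such genes was 6. For root hairs CSLD1 alone was measured, and it did not pass.

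Part of the differences were present in watered roots too. Of 89 genes that differed at least 16-fold in stressed roots, 49 also differed at least 16-fold in the same direction in control roots, 26 higher and 23 lower in Nootripathu. Among these 49, the genes with a name were EIL1B (LOC4332697), an EIN3-like transcription factor of ethylene signalling, and CPK21 (LOC4346187), a calcium-dependent protein kinase. EIL1B gave 5.45 and 6.34 on the IR20 arrays and 11.61 and 12.04 on the Nootripathu arrays, differences of 5.93 ± 0.27 in stressed and 6.70 in control roots. CPK21 gave 4.16 and 4.45 on the IR20 arrays and 9.80 and 9.72 on the Nootripathu arrays, differences of 5.46 ± 0.13 and 4.77. The signals of EIL1B and CPK21 were low on all 4 IR20 arrays.

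By the size of their fitted difference, 6 genes known here only by locus number were named. 4.18 and 3.73 on the IR20 arrays and 14.24 and 14.09 on the Nootripathu arrays were measured for LOC4328727, a difference of 10.21 ± 0.17. Its 3 other probe sets passed in the same direction at 7.26, 7.18 and 3.76. LOC4346960, annotated as a non-coding RNA, and LOC9266843 were higher by 8.06 ± 0.12 and 7.62 ± 0.20. LOC4349197 was lower at -8.68 ± 0.13, with 13.39 and 13.22 on the IR20 arrays and 4.75 and 4.50 on the Nootripathu arrays. LOC4344551 and LOC4344943 were lower at -7.66 ± 0.14 and -6.34 ± 0.15, but their other probe sets gave smaller values, -4.50 and -3.03 for LOC4344551 and -1.48 for LOC4344943, all of which passed. LOC4344551 gave 11.07 and 11.39 on the IR20 arrays and 3.65 and 3.49 on the Nootripathu arrays, and LOC4344943 gave 9.49 and 9.66 on the IR20 arrays and 3.36 and 3.11 on the Nootripathu arrays. On the IR20 arrays LOC4346960 gave 3.55 and 3.46, and LOC9266843 gave 4.40 and 3.78. The low group lay near the bottom of the signal range for these 2 and for LOC4328727, LOC4344551 and LOC4344943. The sizes of these differences and their rank are therefore not exact. In control roots the 6 loci differed in the same direction by 7.05, 7.17, 6.71, -7.21, -6.54 and -5.25.

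Smaller differences of the same kind were found for more named genes, not all of which are listed here. In control roots HAK1 had -2.29, HAK13 1.18, OPR12 -1.41, CYP701A8 -1.58, GER3 1.31 and GST-I 1.15. Each passed there in the same direction as in stressed roots. Another 8 follow. An agglutinin gene (LOC4335068) was higher by 3.94 ± 0.12 in stressed and 3.07 in control roots. BURP2 (LOC4338119), a BURP domain protein, was lower at -3.48 ± 0.15 in stressed and -4.95 in control roots, although a second probe set gave only -0.97. CHARK (LOC4352167), a receptor-like kinase, was lower at -3.13 ± 0.25 and -4.41, and YAB2 (LOC4333584), a YABBY transcription factor, at -2.93 ± 0.25 and -4.35. DRB3 (LOC4338371), a double-stranded RNA binding protein, was lower at -3.46 ± 0.15 and -2.49, GRXC15 (LOC4352426), a glutaredoxin, at -3.06 ± 0.15 and -2.86, and ADF10 (LOC4349142), an actin depolymerising factor, at -2.77 ± 0.21 and -2.66. For PP2C16 the control difference was -2.01. For YAB2, CHARK and BURP2 the control difference was the larger in size: the stressed minus the control difference was 1.42, 1.29 and 1.47, and each passed in the test of that difference.

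Across all genes, stressed and control arrays gave different sets. In control roots 11048 probe sets passed (19.3%), or 6334 genes (35.4%), of which 2259 were higher and 4075 lower. Of the 3246 genes higher in stressed Nootripathu, 987 (30.4%) were also higher in control roots (43.7% of those higher there), 765 were lower there and 1494 did not pass there. Of the 2983 lower in stressed Nootripathu, 857 (28.7%) were also lower in control roots (21.0% of those lower there), 353 were higher and 1773 did not pass. Not passing in control roots does not show a change with water. The difference between the 2 cultivar differences was therefore tested itself, and 11204 probe sets (19.6%) or 5896 genes (32.9%) passed. For 3790 genes (21.2%) Nootripathu minus IR20 was larger in stressed than in control roots, and for 2106 (11.8%) it was smaller. Of the 1494 genes 922 passed this test, and of the 1773 genes 911. Stressed and control roots also differed in how they were cleaned, so that drought and handling cannot be told apart in this test.

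For the genes described first, that difference was 6.15 for NRT2.3 (adjusted p = 7.41e-06), 4.02 for NAR2.2, 7.36 for ALN and 4.24 for AMT1-2. It was -3.90 for CPS2 (adjusted p = 0.000184), -3.82 for ABCG32 and -4.16 for ABA8OX2. All 6 MCM helicase genes passed, from 3.06 for MCM6 to 4.80 for MCM3. Of the 29 genes of the dividing cell list 21 passed, of the 34 cellulose synthase genes and relatives 23, of the 8 LEA and dehydrin genes 6, and of the 16 phytoalexin genes 9. EIL1B had -0.77 and did not pass.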

How the data were processed

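Root RNA of IR20 and Nootripathu was measured on an Affymetrix rice array. The deposited table holds log2 signals. The submitters' processing notes name RMA and Affymetrix Expression Console 3.0 as the tools with which the authors made them. RMA corrects background, quantile-normalizes arrays and summarises probes, so a shift common to all genes is removed. The values were used as deposited, and depth has no meaning for arrays: their number limits precision.

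After 123 control probe sets were left out, 57258 probe sets were fitted in limma 3.58.1 (R 4.3.3) with a mean per group over all 8 arrays and 4 residual degrees of freedom. Cultivar differences in stressed roots, in control roots and their difference (the interaction) were contrasts of this fit, with Benjamini-Hochberg adjustment over all probe sets. The fit was repeated without IR20 stress replicate 2 and under the alternatives given at the end, and the code was tested on simulated data. An exact permutation test of 2 arrays against 2 cannot go below p = 0.333, so single-value permutation tests were not used. The labels call the replicates biological without further detail, so what the spread between arrays covers is not known. The p-values and SEs rest on a variance pooled within all 4 groups, control arrays included. That variance was drawn toward a prior common to all probe sets (3.88 prior beside 4 residual degrees of freedom). They therefore do not give the spread of the 4 compared arrays alone.

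Probe sets were named through the platform annotation and RefSeq gene symbols and synonyms (assembly ASM3414082v1, names only): 22436 had 1 gene, 95 several and 34727 were not listed. Each of 17905 genes was read from its brightest probe set (mean over the 8 arrays), and 2444 of them had a name. Other probe sets of a named gene are given where they did not pass or differ widely from it. Named genes passed with all arrays and without IR20 stress replicate 2: the 15 largest per direction, up to 3 per direction in each of 36 lists, and the 3 largest per direction among loci with no name. Beside these stand 29 single genes whatever their value, and 32 genes were added after their values were seen (MCM2, MCM3, MCM6, MCM7, RPA32, PCNA, the CESA genes, KSL7, NIA1, PHO1-2 and others). The comparison, the lists and the genes were chosen with earlier results of these data known, so none is independent evidence.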

Additional observations from a re-analysis of the deposited data

Results flagged for a closer look

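The cultivar difference itself differed between stressed and control roots for 11204 probe sets (limma interaction, 19.6% of those tested). For the genes named above that passed this test, the values that follow are the cultivar difference in stressed roots minus that in control roots, in log2 units. A positive value means that Nootripathu minus IR20 was larger in stressed roots. Control roots were washed and stressed roots tapped, so drought and handling cannot be told apart in these values.

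Among the nitrogen genes it was 7.36 for ALN, 6.15 for NRT2.3, 4.24 for AMT1-2, 4.02 for NAR2.2, 3.48 for NRT2.2, 3.05 for GLN1-2, 2.76 for NIA1 and 1.61 for the brighter probe set of AMT1-1 (its other probe set went the opposite way in stressed roots, at -0.84). It was negative at -2.46 for AMT2-3. Among the DNA replication genes it was 4.90 for RPA32, 4.80 for MCM3, 4.66 for MCM4, 4.27 for MCM2, 4.22 for MCM5, 3.38 for MCM7, 3.34 for CDKB2-1, 3.06 for MCM6 and 1.46 for PCNA. Values below 0 were -0.54 for ORC2. Among the cell wall genes it was 4.72 for BC1, 3.10 for LAC4, 2.65 for CESA4, 2.49 for CSLF6, 2.41 for CESA7, 1.99 for EXPA16, 1.98 for CAD6, 1.97 for EXPA7, 1.94 for CSLF8, 1.90 for CESA6, 1.89 for CESA1, 1.57 for CESA5, 1.35 for CSLC9, 1.33 for GER4, 1.15 for LAC7, 0.95 for CSLA5 and 0.85 for GER3. It was negative at -3.10 for GER1, -2.57 for LAC19, -2.51 for LAC24, -2.25 for GER2, -1.21 for CAD3, -1.21 for GER6 and -0.78 for CASPL2A1. Among the sugar and fermentation genes it was 3.70 for CIN2, 3.44 for SWEET12, 3.10 for PDC1, 2.97 for SWEET14, 1.93 for ADH2, 1.45 for SWEET15, 1.22 for PDC2 and 0.46 for TPP7. Values below 0 were -1.29 for SWEET1B. Among the mineral and water transport genes it was 4.29 for NRAMP1, 3.55 for LSI6, 3.46 for LSI2, 3.44 for PHO1-2, 3.33 for TIP2-1, 2.78 for NAAT1, 2.45 for NRAMP5, 2.06 for HAK4, 1.92 for NAS3, 1.90 for IRT1, 1.81 for PIP2-5 and 1.01 for HAK13. It was negative at -2.04 for YSL16, -1.94 for YSL13 and -0.79 for TIP2-2. Among the LEA, dehydrin, heat shock and proline genes it was 2.46 for RAB16C, 2.38 for HSFC1A, 2.13 for HSP16.9B, 2.11 for LEA3, 2.09 for RAB16D, 1.97 for RAB16B, 1.86 for RAB21, 1.83 for HSP16.9A, 1.71 for EMP1, 1.44 for HSP26.7 and 0.66 for P5CS2. Values below 0 were -2.36 for HSFB2A and -1.56 for HSFA4D.

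Among the phytoalexin and defence genes it was 0.70 for CYP99A2. It was negative at -3.90 for CPS2, -3.82 for ABCG32, -3.49 for CHT9, -2.81 for KSL10, -2.40 for PBZ1, -2.03 for CHT11, -1.61 for KSL7, -1.42 for CYP76M5, -1.26 for CYP701A8, -1.25 for CYP71Z7, -0.80 for CYP76M8 and -0.80 for RC24. Among the hormone and peptide genes it was 3.78 for LOGL10, 3.50 for IAA12, 1.58 for AOS2, 0.83 for TIFY11E and 0.65 for ABA8OX1. Values below 0 were -4.16 for ABA8OX2, -3.50 for PP2C61, -3.23 for PSK4, -1.94 for SAUR39, -1.35 for AOS3, -1.26 for SD1, -1.03 for LOGL5, -1.03 for ERS2, -0.85 for PP2C16, -0.68 for ACS2 and -0.57 for RR4. Among the transcription factor and other regulatory genes it was 3.67 for CRSH2, 2.54 for MYB17, 1.5 for BZIP52, 1.42 for YAB2, 1.29 for CHARK, 1.06 for NAC45, 0.85 for DREB1A and 0.69 for CPK21. It was negative at -1.83 for MYBS1, -1.13 for DREB2A and -0.98 for DRB3. Among the remaining named genes it was 1.47 for BURP2, 1.34 for GST-I, 1.06 for R1C-PRX and 0.86 for the agglutinin gene. Values below 0 were -1.65 for PETC, -1.37 for PSAG and -0.67 for GSTZ3. Among the genes known by locus only it was 3.16 for LOC4328727 and 0.89 for LOC4346960. It was negative at -1.48 for LOC4349197, -1.12 for LOC4344551 and -1.08 for LOC4344943.

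A signal outside the rice genes also stood apart. The poly-A spike-in transcripts on IR20 stress replicate 2 gave a 3′ minus 5′ difference of 5.32 log2 units, against 2.08 to 2.58 on the other 7 arrays. With 2 arrays per group, no array could be tested for distance from its group.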

How the results depend on the processing

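Of the 214 genes described, 191 passed, and 124 passed in every setting that held their probe set. The fit without probe sets that may match several transcripts held 179 of the 214. The fit without the 40 percent lowest probe sets held 210. None of the 191 had the opposite sign under any alternative, but leaving out an array could not have given 1, as their groups did not overlap. With all arrays 12601 probe sets were called in stressed roots (6105 higher, 6496 lower). From only the 4 stressed arrays 7506 were called (4046 higher, 3460 lower). That fit had fewer residual degrees of freedom and also left out the variance of the control arrays. The part of each in the lower count was not tested. After scaling to the spike-in transcripts 4386 were called (2547 higher, 1839 lower). Array weights left 4324 lower. Leaving out each array in turn gave 7266 to 14365 calls, 3873 to 6723 higher and 3117 to 7642 lower, with the lone array of an arm assumed to vary like the other groups; the 3587 calls of at least 2-fold stayed within 3462 to 4417. Control roots gave 6415 to 14494 calls (11048 with all arrays) and 4710 with spike-in scaling, which moved the share of higher calls from 43.4% to 56.3%. The interaction gave 6509 to 14153 (11204 with all arrays) and 3228 with spike-in scaling. Without IR20 stress replicate 2, 12572 calls became 6925 with spike-in scaling. That scaling moved the median difference of all probe sets from 0.036 to 0.239 in control roots and from -0.082 to -0.368 for the interaction, and it left 62 of the 214 genes without their call. With it the counts of higher and lower genes were 4 and 0 for nitrate, 11 and 0 for dividing cells, 9 and 0 for cellulose, 6 and 3 for jasmonate, 8 and 1 for auxin, 0 and 6 for phytoalexins and 0 and 5 for chitinases and PR proteins. The share over all genes was not counted with that scaling, which gave 4386 calls over all probe sets against 12601. The cause of the shifts with that scaling was not tested. Replicate numbers were not shown to pair the arrays (correlations of deviations from -0.0145 to 0.207). With the replicate number as a block 12674 probe sets passed in stressed roots, 11080 in control roots, 11251 for the interaction and 10198 without IR20 stress replicate 2. Of the 214 genes TRX20 lost its call (adjusted p = 0.0602) and CPS4 gained one (0.0336) in limma with that block.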
